A study of Rosa roxburghii with 15 samples.

Results

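The transcripts of young fruit were compared with those of leaf in Rosa roxburghii, a wild rose of the Rosaceae with an edible fruit. The comparison rests on 6 of the 15 RNA-seq libraries of the series, 3 of mature leaves taken without their petioles and 3 of young fruit picked 50 days after flowering, and on all 63727 unigenes (assembled gene models) listed for each library. The other 9 libraries, from stem, flower and mature fruit at 120 days, entered the fit to share its estimate of the spread. They also counted in the filter that chose the unigenes tested, so some of those were at 0 in both leaf and young fruit. All plants were wild R. roxburghii grown at a single site in Guizhou, China, with no treatment. Leaf was sampled in May and young fruit in July, so tissue and month cannot be told apart. By the labels a tissue had 2 biological replicates with 3 plants in each and TruSeq libraries, while the study's methods give 3 biological replicates and strand-specific libraries. The p-values therefore measure only the spread between libraries of the same tissue, part of which may be technical. In the limma fit this spread, and with it each standard error (SE), is pooled over all 5 tissues. Values are FPKM, which scale the fragments of a unigene to its length and to the size of the library. They hold no read counts, so a value of 0 means only that the unigene was listed at 0. Gene names were given for the MYBs of the study's MYB table alone, each named after its best match in another species, so the tissue labels could not be checked against markers of leaf or fruit. None of the 3 MYBs that best match an insect protein was tested, and the only one above 0 in the 6 libraries, DN28565_c0_g1, was at 0.0611, 0.0794 and 0.299 FPKM in leaf and listed at 0 in young fruit. In bulk tissue, a lower value from fewer cells of a type and one from less RNA per cell cannot be told apart.

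MYB proteins are transcription factors that bind DNA through a domain built of imperfect repeats, and they are sorted by repeat number into R1 (MYB-related), R2R3, R1R2R3 and 4R types. In plants the R2R3 MYBs form one of the largest families of regulators. Its members activate or repress the genes of phenylpropanoid, flavonol, anthocyanin and lignin synthesis, shape trichomes and root hairs, and act in stamens, in secondary walls and in the response to drought and cold. Single-repeat MYBs can compete with R2R3 MYBs for shared partner proteins. In a fleshy fruit of the rose family, the balance of such activators and repressors bears on colour, astringency and firmness.

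A broader set of transcripts was detected in young fruit than in leaf. Young fruit libraries listed 43593, 44202 and 44904 unigenes above 0 FPKM and leaf libraries 36317, 37132 and 37290, and the tissues did not overlap. At 10 FPKM or more the counts were 8380 to 8886 in young fruit and 8487 to 8574 in leaf, which overlap (exact permutation test, two-sided, p = 0.4, n = 3 libraries a tissue, smallest possible p 0.1). The most frequent ratio of low FPKM values to those of leaf library 1 put the relative depth of the libraries, with leaf library 1 set to 1, at 1.0 to 1.14 in leaf and 0.901 to 1.16 in young fruit. In young fruit this rests on only 938 to 1072 unigenes that were low in both libraries compared. Young fruit alone was above 0 in every library for 9256 unigenes that all 3 leaf libraries listed at 0, 1427 of them at a mean of at least 1 FPKM in young fruit. The reverse held for 3005 unigenes, 574 of them at a mean of at least 1 FPKM in leaf. Libraries of a tissue were alike, with Pearson's r of 0.945 to 0.967 against 0.754 to 0.779 between the tissues, taken across unigenes, which are not independent replicates.

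In limma, fitted to log2(FPKM + 0.1) of the 51175 unigenes above 0.1 FPKM in at least 3 of the 15 libraries, 21397 unigenes (41.8%) differed between young fruit and leaf. To be called, a unigene had to reach a Benjamini-Hochberg adjusted p of 0.01 or less and a log2 fold change of 1 or more in size, where a positive value means higher in young fruit. Of these unigenes 13897 (27.2% of those tested) were higher and 7500 (14.7%) were lower in young fruit. The split was closer among the 23042 unigenes with a mean of at least 1 FPKM over the 6 libraries, where 24.5% were higher and 18.9% lower. A log2 fold change of at least 5 was reached by 515 of the called unigenes, and one of at most -5 by 473. Over all unigenes tested the median log2 fold change was 0.27, and median-of-ratios scaling of the libraries lowered it by 0.14 on the log2 scale. The fold change on this scale understates that of unigenes with low values.

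The 100 unigenes with the highest mean in leaf and the 100 with the highest mean in young fruit had 31 in common, and neither set held a MYB. The 4 unigenes that follow have no gene name in the sources used here. DN147477_c2_g1 was at 20.2, 13.4 and 14.2 FPKM in the leaf libraries and 3521, 4334 and 3388 FPKM in the young fruit libraries (limma log2 fold change 7.88 with SE 0.18, adjusted p = 3.38e-12). DN141961_c6_g2, the most abundant unigene of young fruit, was at 4636, 3912 and 3453 FPKM in leaf against 26330, 33096 and 17564 FPKM in young fruit (limma log2 fold change 2.64 with SE 0.19, adjusted p = 5.81e-08). In both unigenes every young fruit library lay above every leaf library. DN144482_c1_g3 was at 13363, 13962 and 13026 FPKM in leaf against 1055, 1278 and 1057 FPKM in young fruit (limma log2 fold change -3.58 with SE 0.08, adjusted p = 1.92e-12). DN144478_c5_g2 was at 6423, 7364 and 7154 FPKM in leaf against 1149, 1191 and 1067 FPKM in young fruit (limma log2 fold change -2.62 with SE 0.11, adjusted p = 3.87e-10).

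**Figure D1:**
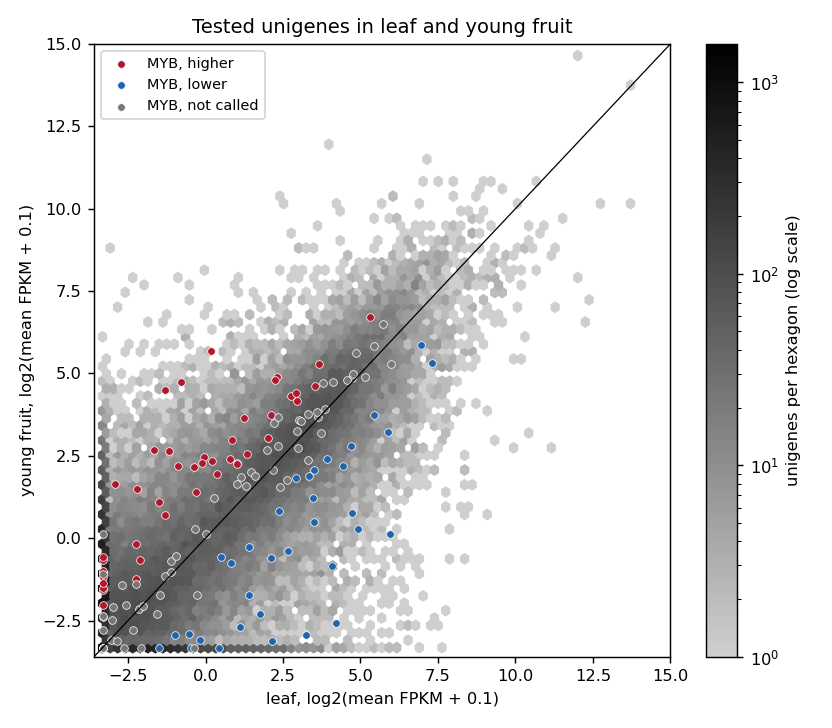
Mean expression of the 51175 tested unigenes in leaf (x axis) and young fruit (y axis), each as log2(mean FPKM + 0.1) of 3 libraries. Grey shading counts unigenes per hexagon on a log scale, coloured points are the 142 tested MYBs by call, and the line marks equal values. Columns of points along the left and lower edges are unigenes listed at 0 in 1 of the tissues, and the 44 higher and 34 lower MYBs lie on either side of the line.

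Among the MYBs, 44 were higher and 34 lower in young fruit and 64 were not called, out of 142 tested. The share called was 54.9%, with 31.0% higher and 23.9% lower, against the 41.8%, 27.2% and 14.7% over all unigenes. With a mean of at least 1 FPKM over the 6 libraries, 58 of 91 MYBs (63.7%) were called against 43.4% of all such unigenes. The tissues did not overlap in any of the 78 called MYBs. The calls were made on the same libraries, so this is no further evidence of a difference. Over all unigenes tested, called or not, 38.2% had every young fruit library above every leaf library and 23.9% had every one below. These shares cannot be set against the called MYBs. Of the 64 MYBs that were not called, 17 passed the threshold on p alone, 8 passed that on the fold alone and 39 passed neither. In 9 of the higher MYBs leaf was listed at 0 in all 3 libraries, and in 3 of the lower ones young fruit was. With a pseudocount of 1, 17 of the 44 higher and 8 of the 34 lower MYBs lost their call, all 9 of the higher ones listed at 0 in leaf among them. The 21 MYBs that were not tested comprise 12 of the 16 listed at 0 in all 6 libraries and 9 above 0 in at least 1, none over 1.40 FPKM. The rest of the 16 were tested because of their values in other tissues and could not be called. Sorted into groups by best match, the MYBs of a group seldom all moved one way, and most groups with at least 4 tested members held both higher and lower ones. The group medians that follow include MYBs listed at 0 in 1 tissue, whose fitted values depend on the pseudocount. They also include tested MYBs listed at 0 in both tissues, whose log2 fold change is 0. The group counts are descriptions to be read against the shares over all unigenes, 27.2% higher and 14.7% lower, and no group was tested against them.

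**Figure D2:**
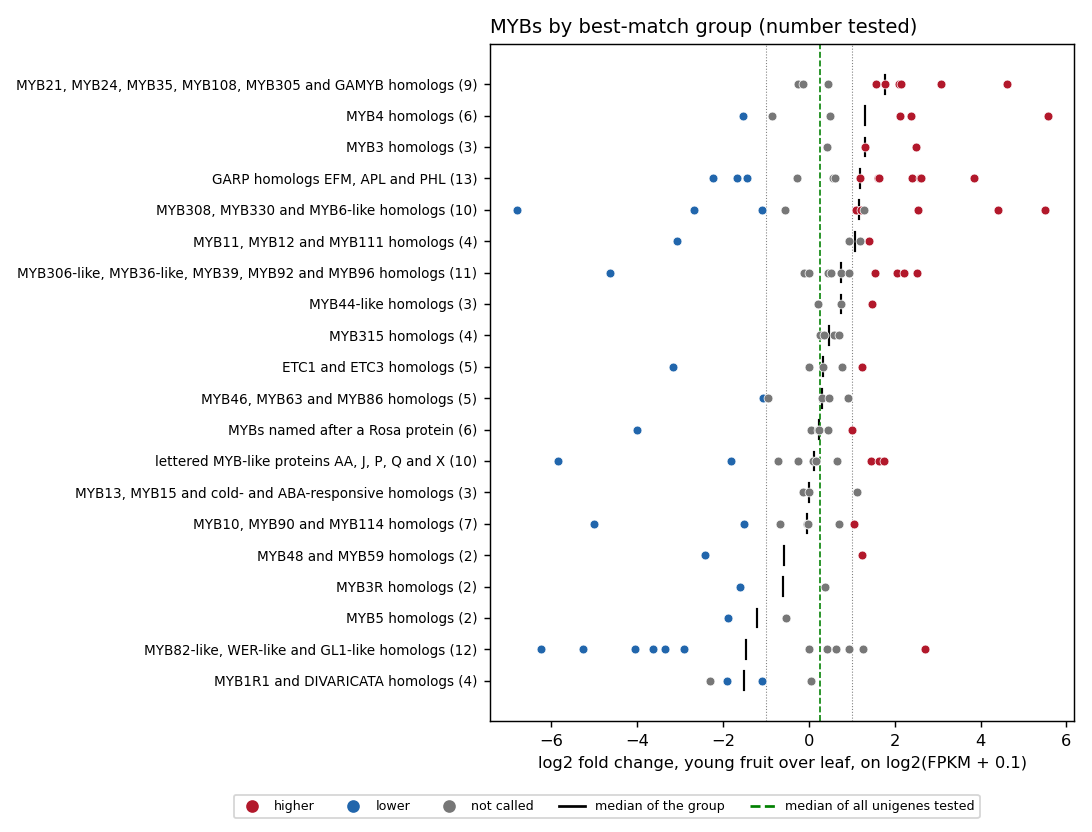
Log2 fold change of young fruit over leaf on log2(FPKM + 0.1) for the tested MYBs of 20 groups defined by best match (x axis), with the number tested in brackets. Red and blue points were called higher or lower in young fruit by limma and grey points were not called, black bars are the median of a group, the dashed line is the median of all unigenes (0.27), and dotted lines mark a log2 fold change of 1 in either direction. Points of MYBs listed at 0 in 1 tissue depend on the pseudocount. The MYB308, MYB330 and MYB6-like group spans -6.80 to 5.51 and the MYB82-like group has 6 members below -2.

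The abundant MYBs of leaf and young fruit were partly different ones. The summed FPKM of the MYBs was 1293 to 1324 in the leaf libraries and 1235 to 1266 in the young fruit libraries, a difference of -58.8 FPKM (exact permutation test, two-sided, p = 0.1, the smallest that 3 against 3 libraries allow). Without the most abundant MYB of each tissue this difference was -5.50 FPKM. With median-of-ratios scaling it was -246 FPKM. With every library rescaled to a sum of 1000000, which raises all values, the MYBs summed to 2626 to 2691 in leaf and 2232 to 2413 in young fruit. The 5 most abundant MYBs held 35.7% of the sum in leaf and 28.8% in young fruit, and 6 of the 10 most abundant were the same in both. DN145829_c0_g2, whose best match is an R2R3-like protein of Populus, ranked 1st in leaf and 7th in young fruit. DN145829_c0_g2 was at 162, 159.5 and 155 FPKM in the leaf libraries and 40.7, 42.8 and 35.9 FPKM in the young fruit libraries. Every leaf value exceeded every young fruit value (limma log2 fold change -2.0 with SE 0.25, adjusted p = 1.22e-05). The first rank in young fruit was held by DN111034_c0_g1, named after the flavonol regulator MYB12, which ranked 9th in leaf and is described with its group. DN133642_c0_g1, named after the single-repeat MYB1R1, ranked 2nd in leaf and 3rd in young fruit although it was lower in young fruit. The MYB308 homolog DN144022_c3_g4 went from rank 81 in leaf to 5 in young fruit, and the MYB-like J homolog DN143366_c4_g3 from rank 4 in leaf to 84 in young fruit.

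Homologs of repressors of the phenylpropanoid pathway included MYBs with large differences in both directions. This pathway leads from phenylalanine to lignin, flavonoids and other phenolics. Arabidopsis MYB4 and MYB3 repress its genes, and MYB308 and MYB330 of Antirrhinum lower phenolic acids and lignin when expressed in tobacco. Of the 6 tested MYB4 homologs 3 were higher in young fruit, 1 was lower and 2 were not called, at a median log2 fold change of 1.31 against 0.27 over all unigenes. The 10 tested homologs of MYB308, MYB330 and MYB6-like repressors comprised 5 higher, 3 lower and 2 not called, with a median of 1.16. Among the 3 MYB3 homologs, grouped by name, 2 were higher and 1 was not called, and 1 of the higher ones is of the R1R2R3 type. The qRT-PCR primers of 4 of these MYBs are shown because the deposited values give no other sequence by which the unigenes can be recognised. Each is written 5′ to 3′ in lower case as the study designed it, the sense primer first.
DN142862_c0_g1 sense: ggtgtgccagtaattcttgat
DN142862_c0_g1 antisense: gttgtagacttcgttggatga
DN144022_c3_g4 sense: gtgtatgaagcctgatgatgagat
DN144022_c3_g4 antisense: tgcgtcgttgcggtaaga
DN144339_c1_g4 sense: atgcctcgctgctctgaa
DN144339_c1_g4 antisense: tgtggtgacctgaacttgga
DN147128_c3_g4 sense: aatcacaaccaccaccaacac
DN147128_c3_g4 antisense: gcttcagatagacatcacattcca

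The MYB4 homolog DN142862_c0_g1 was nearly silent in leaf and abundant in young fruit. DN142862_c0_g1 was at 0.355, 0.402 and 0.661 FPKM in the leaf libraries and 24.7, 28.8 and 25.8 FPKM in the young fruit libraries. Young fruit exceeded leaf throughout (limma log2 fold change 5.57 with SE 0.20, adjusted p = 1.18e-10). Its mean was 55.9 times as high in young fruit. Outside these tissues its mean (± SD, n = 3 libraries) was 84.3 ± 17.6 FPKM in mature fruit, 0.315 ± 0.0447 in flower and 1.75 ± 0.198 in stem. Further MYB4 homologs of lower level followed the same direction. DN138607_c0_g1 was at 2.29, 2.13 and 2.38 FPKM in the leaf libraries and 12, 15.6 and 9.93 FPKM in the young fruit libraries. DN147056_c0_g1 was at 1.15, 1.08 and 0.969 FPKM in the leaf libraries and 5.02, 5.28 and 4.71 FPKM in the young fruit libraries. Both were higher in young fruit without overlap (log2 fold changes 2.39 and 2.13, limma adjusted p = 2.26e-08 and 1.06e-06). The MYB4-like DN146415_c3_g1 was the one lower member. DN146415_c3_g1 was at 15.2, 14.6 and 15.3 FPKM in the leaf libraries and 6.04, 4.62 and 4.85 FPKM in the young fruit libraries. Young fruit was the lower tissue in each library (limma log2 fold change -1.53 with SE 0.19, adjusted p = 1.39e-05). DN138619_c0_g3, named after a MYB4 of loquat, was at 4.25, 6.1 and 5.28 FPKM in leaf against 2.82, 2.63 and 3.04 FPKM in young fruit and did not reach the fold threshold (limma log2 fold change -0.85 with SE 0.22, adjusted p = 0.00409). With median-of-ratios scaling it did (log2 fold change -1.04, limma adjusted p = 0.000532). DN121791_c0_g1, the sixth tested homolog, did not exceed 0.103 FPKM in the 6 libraries.

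The MYB308 and MYB330 homologs divided between the tissues, each with abundant members. DN144022_c3_g4 was at 1.03, 0.846 and 1.22 FPKM in the leaf libraries and 49.6, 53.3 and 50.1 FPKM in the young fruit libraries. Young fruit stood higher without overlap (limma log2 fold change 5.51 with SE 0.15, adjusted p = 1.24e-11). Its mean in young fruit was 49.4 times that in leaf, with 41 ± 8.26 FPKM in mature fruit, 1.82 ± 0.195 in flower and 7.81 ± 0.432 in stem. The opposite pattern was widest in 2 of the 3 lower homologs. DN146459_c0_g1 was at 16.5, 17.6 and 20.7 FPKM in the leaf libraries and 0.129, 0.0422 and 0.0352 FPKM in the young fruit libraries. All young fruit libraries lay below all leaf libraries (limma log2 fold change -6.8 with SE 0.20, adjusted p = 2.62e-11). Every young fruit library of this MYB330 homolog was near 0, and its mean was 0.00728 ± 0.0126 FPKM in mature fruit, 6.01 ± 0.525 in flower and 6.6 ± 0.214 in stem. DN136168_c0_g1 was at 57.6, 59.2 and 61.3 FPKM in the leaf libraries and 9.35, 9.36 and 8.95 FPKM in the young fruit libraries. Every leaf value exceeded every young fruit value (limma log2 fold change -2.67 with SE 0.13, adjusted p = 1.22e-09). Thus 1 MYB308 homolog with a leaf mean of 59.4 ± 1.83 FPKM and another with a young fruit mean of 51 ± 2.01 FPKM stood at similar levels in opposite tissues. The summed FPKM of the group was 102 to 108.5 in leaf and 124 to 134 in young fruit, without overlap.

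The MYB6-like repressor homolog DN144339_c1_g4 was higher in young fruit. DN144339_c1_g4 was at 4.83, 4.55 and 4.53 FPKM in the leaf libraries and 27.5, 28.2 and 26.8 FPKM in the young fruit libraries. Young fruit exceeded leaf throughout (limma log2 fold change 2.54 with SE 0.08, adjusted p = 5.00e-11). The MYB308-like DN144669_c3_g5 was far below it in level. DN144669_c3_g5 was at 0.364, 0.142 and 0.145 FPKM in the leaf libraries and 6.73, 6.48 and 5.85 FPKM in the young fruit libraries. Leaf was the lower tissue in each library (limma log2 fold change 4.42 with SE 0.39, adjusted p = 3.89e-07). DN144669_c3_g3, a MYB330 homolog of the same Trinity component, was at 2.4, 1.63 and 1.79 FPKM in leaf against 4.01, 5.38 and 4.52 FPKM in young fruit (limma log2 fold change 1.23 with SE 0.25, adjusted p = 0.000947). Unigenes of a component can share reads, so their separate values are uncertain. Calls near the fold threshold were less firm in this group. The MYB308-like DN138451_c0_g1 was higher in young fruit, at 12.3, 11 and 11.1 FPKM in leaf against 23, 26.6 and 24.2 FPKM in young fruit (limma log2 fold change 1.1 with SE 0.09, adjusted p = 1.55e-07), but not under median-of-ratios scaling (log2 fold change 0.90). The MYB308-like DN142694_c0_g3 was lower, at 8.1, 6.83 and 7.58 FPKM in leaf against 3.58, 3.88 and 2.94 FPKM in young fruit (limma log2 fold change -1.1 with SE 0.16, adjusted p = 4.62e-05), and without young fruit library 3 its log2 fold change was -0.99. Among the MYB3 homologs, the R1R2R3-type DN147128_c3_g4 had the highest level. Since DN143039_c2_g1 and DN138619_c0_g2 are of the R2R3 type, its place among homologs of the repressor MYB3 rests on its name and is uncertain. DN147128_c3_g4 was at 0.775, 0.909 and 0.926 FPKM in the leaf libraries and 5.31, 5.18 and 5.71 FPKM in the young fruit libraries. Young fruit stood higher without overlap (limma log2 fold change 2.51 with SE 0.09, adjusted p = 1.53e-10). The MYB3-like DN143039_c2_g1 was listed at 0 in leaf and was at 0.128, 0.174 and 0.138 FPKM in young fruit (limma adjusted p = 0.000297). DN138619_c0_g2, also a MYB3 homolog, was at 0.542, 0.345 and 0.368 FPKM in leaf against 0.524, 0.775 and 0.483 FPKM in young fruit, which overlap.

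**Figure D3:**
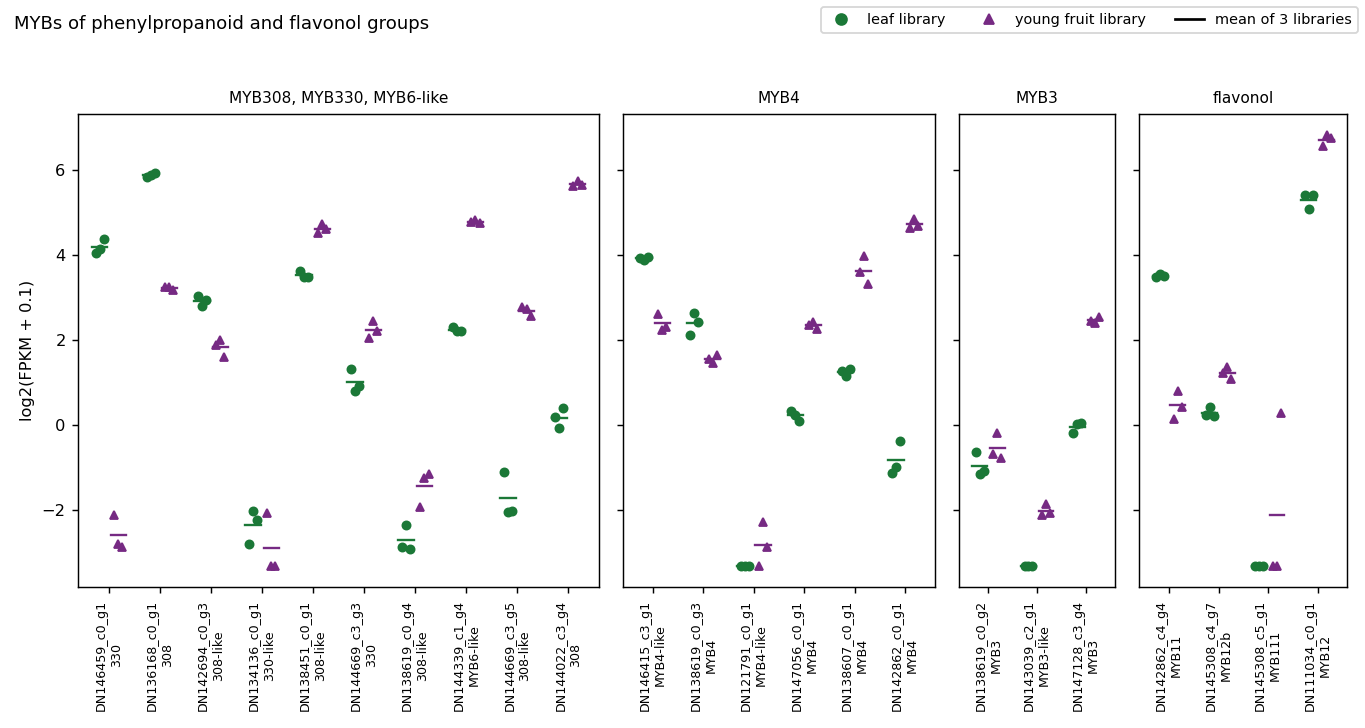
Expression in each leaf (circles) and young fruit (triangles) library of the tested MYBs in the groups of MYB308, MYB330 and MYB6-like repressors, MYB4, MYB3 and the flavonol regulators, on log2(FPKM + 0.1). Horizontal lines are means of 3 libraries, and within a panel the unigenes are ordered by log2 fold change. Points at the foot of the panels are values listed at 0. DN146459_c0_g1 and DN142862_c0_g1 sit at opposite ends, and the 3 libraries of a tissue lie close together for the abundant members.

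Homologs of flavonol regulators included the most abundant MYB of young fruit. MYB11, MYB12 and MYB111 activate early flavonoid genes in Arabidopsis, and of their 4 homologs 1 was higher, 1 was lower and 2 were not called. The MYB12 homolog DN111034_c0_g1 led the MYBs of young fruit, and its qRT-PCR primers are given to identify it.
DN111034_c0_g1 sense: tcagagaacaccgactaacct
DN111034_c0_g1 antisense: gcctccaacaacaacaataaca
DN111034_c0_g1 was at 42.6, 34.1 and 42.3 FPKM in the leaf libraries and 94.6, 113.6 and 107 FPKM in the young fruit libraries. All young fruit libraries lay above all leaf libraries (limma log2 fold change 1.41 with SE 0.09, adjusted p = 2.52e-08). In the other tissues it was at 58.9 ± 3.92 FPKM in mature fruit, 32.9 ± 1.1 in flower and 75.9 ± 3.47 in stem. The MYB11 homolog DN142862_c4_g4, named after a strawberry protein, showed the opposite. DN142862_c4_g4 was at 11.1, 11.6 and 11.2 FPKM in the leaf libraries and 1.01, 1.64 and 1.24 FPKM in the young fruit libraries. Every leaf value exceeded every young fruit value (limma log2 fold change -3.06 with SE 0.20, adjusted p = 2.24e-08). The MYB12b homolog DN145308_c4_g7 was at 1.07, 1.24 and 1.04 FPKM in leaf against 2.23, 2.49 and 2.01 FPKM in young fruit and narrowly missed the fold threshold (limma log2 fold change 0.94 with SE 0.27, adjusted p = 0.00783). DN145308_c5_g1, the MYB111 homolog, was above 0 in a single library of the 6, young fruit library 3, at 1.12 FPKM.

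Homologs of anthocyanin regulators stayed under 5 FPKM in every young fruit library. MYB10 activates anthocyanin synthesis in apple, strawberry and other Rosaceae, and MYB90 and MYB114 do so in Arabidopsis. Of 7 tested homologs 1 was higher in young fruit, 2 were lower and 4 were not called. Both lower members were MYB114-like. DN145802_c2_g12 was at 11.6, 15.9 and 23.4 FPKM in the leaf libraries and 0.314, 0.825 and 0.247 FPKM in the young fruit libraries. Leaf exceeded young fruit throughout (limma log2 fold change -5.0 with SE 0.45, adjusted p = 5.44e-07). DN145308_c4_g6 was at 8.93, 11.3 and 10.2 FPKM in the leaf libraries and 3.04, 4.72 and 2.96 FPKM in the young fruit libraries. Young fruit was the lower tissue in each library (limma log2 fold change -1.5 with SE 0.18, adjusted p = 7.41e-06). Another MYB114-like unigene, DN147278_c5_g2, was at 2.32, 2.22 and 1.84 FPKM in leaf against 3.33, 4.33 and 2.94 FPKM in young fruit and was not called (limma log2 fold change 0.7 with SE 0.26, adjusted p = 0.0331). The 3 MYB10 homologs stayed under 0.4 FPKM in all 6 libraries. Of these DN30159_c0_g1 was called higher, at 0.137, 0.158 and 0.0404 FPKM in leaf against 0.244, 0.379 and 0.358 FPKM in young fruit (limma log2 fold change 1.04 with SE 0.30, adjusted p = 0.00882), a call lost in 13 of 17 alternatives, without leaf library 1 among them (limma adjusted p = 0.0127) and without leaf library 3 (0.0485), young fruit library 2 (0.0278) or young fruit library 3 (0.0253). With the replicate number as a block its limma adjusted p was 0.0133. DN149070_c1_g2, at 0.123, 0.209 and 0.108 FPKM in leaf against 0.191, 0.123 and 0.102 FPKM in young fruit, and DN109626_c0_g1, above 0 in 1 library of each tissue, were not called. MYB5 of Arabidopsis acts in seed coats and trichomes, and its grapevine counterpart in proanthocyanidin synthesis. The MYB5 homolog DN145308_c4_g1 was at 13.5, 13 and 13 FPKM in leaf against 9.29, 7.69 and 10.4 FPKM in young fruit, lower without overlap but short of the fold threshold (limma log2 fold change -0.53 with SE 0.13, adjusted p = 0.00282). The MYB5-like DN142862_c4_g2 was lower, from 0.161, 0.55 and 0.514 FPKM in leaf to 0, 0.0679 and 0.027 FPKM in young fruit (limma log2 fold change -1.87 with SE 0.37, adjusted p = 0.000615), but was not called when only the 6 libraries were fitted (limma adjusted p = 0.0161).

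Homologs of trichome and root hair regulators included 6 MYBs that were lower in young fruit. MYB82 and GL1 promote trichomes in Arabidopsis and WER specifies hairless root cells. Of 12 tested homologs 6 were lower, 1 was higher and 5 were not called, that is 50.0% lower and 8.33% higher against 14.7% and 27.2% over all unigenes. Several of the lower members share a Trinity component with a MYB82-like unigene that stood higher in young fruit. The members are therefore not independent counts. The median log2 fold change of -1.45, against 0.27 over all unigenes, fell in a gap. The 6 lower members were at -2.90 or below and the rest at 0 or above. The value of 0 belongs to DN146459_c2_g11, which was listed at 0 in both tissues. With a pseudocount of 1, 5 lower members and no higher one were called. DN146459_c2_g9 was at 9.74, 7.5 and 10.7 FPKM in the leaf libraries and 0, 0.0887 and 0 FPKM in the young fruit libraries. DN146459_c2_g8 was at 4.3, 3.73 and 4.8 FPKM in the leaf libraries and 0, 0.0471 and 0 FPKM in the young fruit libraries. DN144568_c0_g4 was at 2.37, 3.12 and 4.33 FPKM in the leaf libraries and 0.13, 0.124 and 0.0528 FPKM in the young fruit libraries. These 3 MYB82-like unigenes were close to 0 in every young fruit library and separated from leaf (log2 fold changes -6.24, -5.26 and -4.04, limma adjusted p = 1.32e-09, 2.83e-09 and 3.23e-06). DN148549_c3_g2, also MYB82-like, was at 0.641, 2.01 and 1.1 FPKM in leaf and listed at 0 in young fruit (limma adjusted p = 6.32e-06). DN143182_c1_g11 and DN146459_c2_g5 completed the lower members, with leaf means of 2.53 ± 0.634 and 0.778 ± 0.141 FPKM and young fruit means of 0.205 ± 0.18 and 0.0169 ± 0.0147 FPKM.

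The MYB82-like DN146459_c2_g1 and DN148549_c3_g4 stood higher in young fruit without passing the test. DN146459_c2_g1 was at 15, 12.4 and 13.4 FPKM in the leaf libraries and 24.8, 28 and 25.6 FPKM in the young fruit libraries. DN148549_c3_g4 was at 4.64, 4.67 and 4.32 FPKM in the leaf libraries and 10.7, 12.4 and 10.2 FPKM in the young fruit libraries. The libraries did not overlap in either, yet both missed the threshold on p (limma log2 fold change 0.94 with SE 0.32, adjusted p = 0.0232 for the first and limma log2 fold change 1.26 with SE 0.43, adjusted p = 0.0226 for the second). When only the 6 libraries were fitted, the second was called (limma adjusted p = 0.000209). The summed FPKM of the group was 37.6 to 43.0 in leaf and 37.2 to 41.6 in young fruit, which overlap. The higher member was the WER-like DN140431_c0_g1, which was listed at 0 in leaf and was at 0.78, 0.465 and 0.467 FPKM in young fruit (limma adjusted p = 7.74e-06). The WER-like DN145308_c4_g5, at 0.312, 0.461 and 0.323 FPKM in leaf against 0.495, 0.456 and 0.598 FPKM in young fruit, was not called, and the GL1-like DN141656_c0_g3 was listed at 0 in all 6 libraries. Component DN146459_c2 held 8 MYBs, of which 3 MYB82-like unigenes were lower and the MYB108 homolog DN146459_c2_g7 was higher in young fruit. DN146459_c2_g12, also MYB82-like, was not tested, at 1.4, 1.14 and 0 FPKM in leaf and 0 in young fruit. DN146459_c2_g11 and DN146459_c2_g4 were listed at 0 in all 6 libraries. The 8 MYBs of component DN146459_c2 summed to 26.4 to 32.6 FPKM in leaf and 28.8 to 31.4 FPKM in young fruit, which overlap. Component DN148549_c3, with DN148549_c3_g2 lower, summed to 5.28 to 6.68 FPKM in leaf and 10.2 to 12.4 FPKM in young fruit. These sums were thus not lower in young fruit.

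ETC1 and ETC3 are single-repeat MYBs of Arabidopsis that inhibit trichomes and promote root hairs by competing with proteins such as GL1. Their 5 homologs comprised 1 higher, 1 lower and 3 not called. The ETC1 homolog DN146126_c4_g1 was the second most abundant MYB of young fruit. DN146126_c4_g1 was at 54.6, 51.7 and 50.6 FPKM in the leaf libraries and 86.3, 87.7 and 95.1 FPKM in the young fruit libraries. Young fruit lay above leaf in every library, at a log2 fold change of 0.78 (SE 0.06) that did not reach the fold threshold (limma adjusted p = 2.39e-07). The ETC3 homologs divided. DN149700_c2_g3 was at 6.09, 6.73 and 5.89 FPKM in the leaf libraries and 0.649, 0.971 and 0.349 FPKM in the young fruit libraries. Leaf stood higher without overlap (limma log2 fold change -3.15 with SE 0.38, adjusted p = 7.93e-06). DN144174_c0_g4 was at 2.99, 2.16 and 2.14 FPKM in the leaf libraries and 5.12, 6.58 and 5.73 FPKM in the young fruit libraries. All young fruit libraries lay above all leaf libraries (limma log2 fold change 1.23 with SE 0.23, adjusted p = 0.000389). The ETC1 homolog DN149700_c2_g2, of the same component as the lower ETC3 homolog, was at 3.12, 2.23 and 3.4 FPKM in leaf against 3.42, 3.42 and 4.02 FPKM in young fruit and was not called (limma log2 fold change 0.32 with SE 0.28, adjusted p = 0.353).

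**Figure D4:**
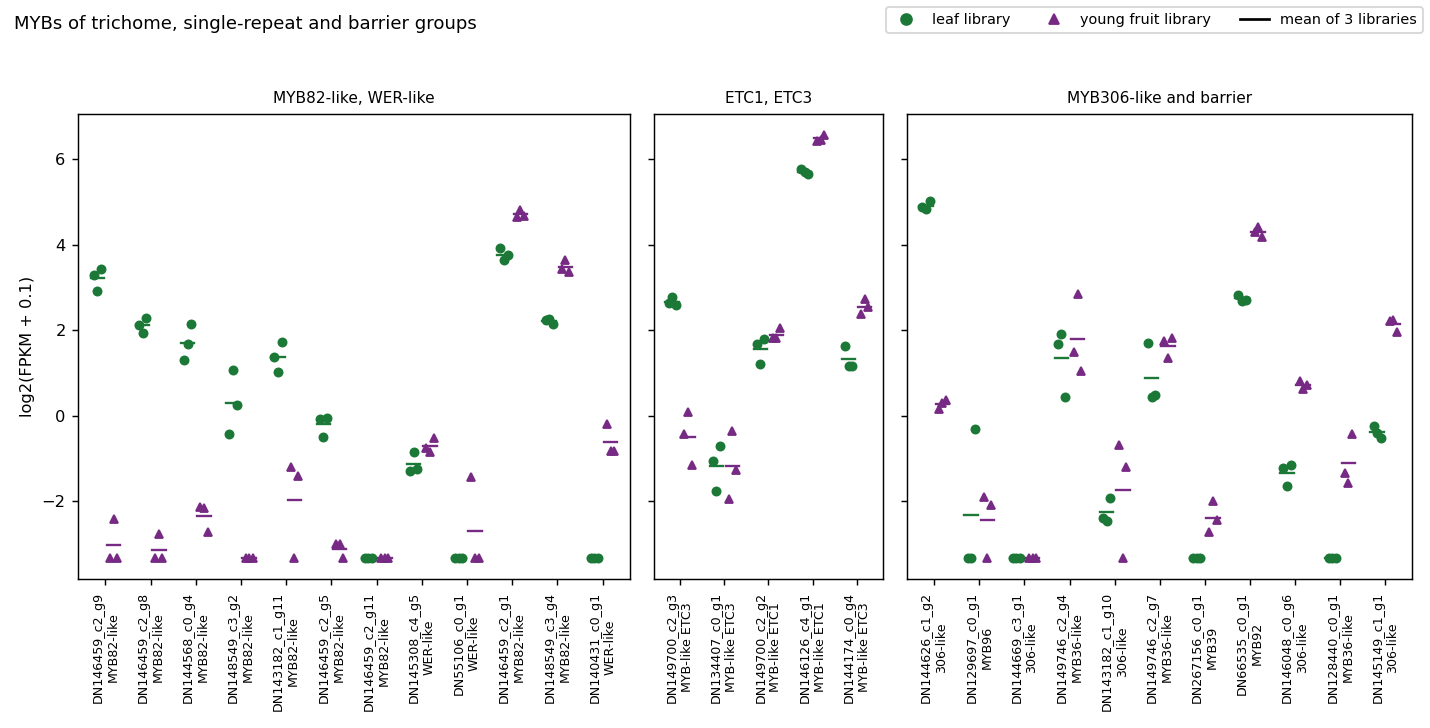
Expression in each leaf (circles) and young fruit (triangles) library of the tested MYBs in the groups of MYB82-like and WER-like, ETC1 and ETC3, and MYB306-like and barrier homologs, on log2(FPKM + 0.1). Horizontal lines are means of 3 libraries and the unigenes of a panel are ordered by log2 fold change. The lower MYB82-like unigenes drop to the foot of the panel in young fruit, where values listed at 0 lie, while DN146459_c2_g1 and DN148549_c3_g4 do not.

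Homologs of regulators of cuticular wax, suberin and the Casparian strip went both ways. In Arabidopsis MYB96 promotes wax, MYB39 and MYB92 promote suberin and MYB36 controls the Casparian strip, and the MYB306-like proteins are named after a MYB of Antirrhinum. Of 11 tested homologs 4 were higher, 1 was lower and 6 were not called, with a median log2 fold change of 0.76. The shares of 36.4% higher and 9.09% lower were near the 27.2% and 14.7% over all unigenes, and 2 of the 4 higher calls, DN146048_c0_g6 and DN128440_c0_g1, were lost with a pseudocount of 1. The MYB92 homolog DN66535_c0_g1 was the most abundant of them in young fruit. DN66535_c0_g1 was at 6.97, 6.36 and 6.49 FPKM in the leaf libraries and 19.7, 21.1 and 18 FPKM in the young fruit libraries. Every young fruit value exceeded every leaf value (limma log2 fold change 1.55 with SE 0.08, adjusted p = 1.52e-09). The MYB306-like unigenes went both ways. DN144626_c1_g2 was at 29.3, 28.4 and 32.2 FPKM in the leaf libraries and 1.03, 1.14 and 1.19 FPKM in the young fruit libraries. Leaf exceeded young fruit throughout (limma log2 fold change -4.62 with SE 0.29, adjusted p = 1.84e-08). This unigene, of the 4R type, was the member with the largest difference in the group. DN145149_c1_g1 was at 0.752, 0.659 and 0.603 FPKM in the leaf libraries and 4.57, 4.67 and 3.78 FPKM in the young fruit libraries. Leaf was the lower tissue in each library (limma log2 fold change 2.52 with SE 0.19, adjusted p = 8.85e-08). DN146048_c0_g6 was higher as well, with means of 0.301 ± 0.069 FPKM in leaf and 1.54 ± 0.102 FPKM in young fruit (limma log2 fold change 2.05 with SE 0.24, adjusted p = 7.28e-06). The MYB36-like DN128440_c0_g1 was listed at 0 in leaf and was at 0.294, 0.239 and 0.646 FPKM in young fruit (limma adjusted p = 6.03e-06). The MYB36-like DN149746_c2_g4, at 3.12, 3.65 and 1.26 FPKM in leaf against 2.7, 7.14 and 1.98 FPKM in young fruit, was not called, nor was DN149746_c2_g7, at 3.18, 1.25 and 1.31 FPKM in leaf against 3.26, 2.46 and 3.45 FPKM in young fruit. Without leaf library 1 DN149746_c2_g7 was called higher (log2 fold change 1.18, limma adjusted p = 0.000788). The MYB96 homolog DN129697_c0_g1 was listed at 0 in 2 of the leaf libraries and 1 of the young fruit libraries.

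Homologs of secondary wall and lignin regulators gave 1 call, in a MYB46 homolog. MYB46 is a switch for secondary wall formation in Arabidopsis and MYB63 activates lignin genes. Of the 5 homologs 1 was lower and 4 were not called. The MYB46 homolog DN142862_c4_g3 was at 1.57, 1.27 and 1.12 FPKM in leaf against 0.628, 0.484 and 0.61 FPKM in young fruit (limma log2 fold change -1.07 with SE 0.21, adjusted p = 0.000567). Its log2 fold change was -0.95 without leaf library 1 and -0.97 without young fruit library 2, and the call was then lost. The other MYB46 homolog, DN146433_c2_g3, was at 11.6, 8.8 and 9.24 FPKM in leaf against 4.68, 4.87 and 5.61 FPKM in young fruit, without overlap (limma log2 fold change -0.95 with SE 0.13, adjusted p = 2.21e-05). It was called lower under median-of-ratios scaling (log2 fold change -1.14, limma adjusted p = 4.94e-06). The MYB86 homolog DN145308_c1_g1 was at 10.6, 9.14 and 9.46 FPKM in leaf against 13.6, 13.4 and 13.4 FPKM in young fruit (limma log2 fold change 0.47 with SE 0.11, adjusted p = 0.00243), and the MYB86-like DN145021_c0_g7 at 7.7, 7.56 and 7.67 and 9.0, 10.4 and 9.14 FPKM. The MYB63 homolog DN147741_c0_g1 was at 0, 0.056 and 0.0191 FPKM in leaf against 0.208, 0.0854 and 0.113 FPKM in young fruit, without overlap. It passed on p and not on the fold (limma log2 fold change 0.90 with SE 0.25, adjusted p = 0.00658). This MYB63 homolog was called higher with a pseudocount of 0.01, after rescaling to equal sums, and without leaf library 2 or young fruit library 2.

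Homologs of MYBs known from stamens and petals were low in leaf where they were called. In Arabidopsis MYB21, MYB24 and MYB108 act in stamen development downstream of jasmonate and MYB35 acts in the tapetum, and GAMYB mediates gibberellin responses in cereals. Of 9 tested homologs 6 were higher in young fruit (66.7% against 27.2% over all unigenes), none was lower (against 14.7%) and 3 were not called. All 6 were at or below 1.27 FPKM in leaf, and in 3 of them leaf was listed at 0. The MYB21 homolog DN141656_c0_g1 had the largest difference of those above 0 in leaf. DN141656_c0_g1 was at 0.0403, 0.0524 and 0 FPKM in the leaf libraries and 2.81, 3.12 and 3.18 FPKM in the young fruit libraries. Young fruit stood higher without overlap (limma log2 fold change 4.61 with SE 0.31, adjusted p = 2.70e-08). Its mean was 0.0533 ± 0.0464 FPKM in mature fruit, 0.99 ± 0.222 in flower and 1.05 ± 0.122 in stem. The MYB108-like DN138619_c0_g1 and the MYB108 homolog DN146459_c2_g7 were above 1 FPKM in every young fruit library. DN138619_c0_g1 was at 0.465, 0.569 and 0.302 FPKM in the leaf libraries and 3.45, 4.33 and 5.6 FPKM in the young fruit libraries. DN146459_c2_g7 was at 1.27, 1.04 and 1.25 FPKM in the leaf libraries and 3.89, 3.25 and 4.05 FPKM in the young fruit libraries. Young fruit exceeded leaf in both without overlap (log2 fold changes 3.07 and 1.57, limma adjusted p = 3.80e-08 and 0.000185). The 3 members listed at 0 in leaf were the MYB24 homolog DN148048_c1_g5, at 0.176, 0.282 and 0.74 FPKM in young fruit, the MYB108-like DN279740_c0_g1, at 0.343, 0.447 and 0.227 FPKM, and the MYB21 homolog DN148254_c1_g2, at 0.28, 0.131 and 0.35 FPKM. None of these 3 was called with a pseudocount of 1. The MYB35-like DN146048_c0_g4, at 5.23, 4.79 and 4.94 FPKM in leaf against 6.84, 6.85 and 6.93 FPKM in young fruit, passed on p and not on the fold (limma log2 fold change 0.46 with SE 0.08, adjusted p = 0.00035). The GAMYB homolog DN147282_c0_g1 was at 4.25, 4.43 and 4.68 FPKM in leaf against 4.51, 2.97 and 4.83 FPKM in young fruit, which overlap.

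The GARP homologs gave 7 higher, 3 lower and 3 not called of 13 tested (53.8% higher and 23.1% lower against 27.2% and 14.7% over all unigenes), with a median log2 fold change of 1.2. GARP proteins carry a single MYB-like repeat. In Arabidopsis APL specifies phloem, EFM delays flowering by repressing FT in leaves, and PHL proteins are relatives of PHR1, the regulator of phosphate starvation responses. The EFM homolog DN146463_c1_g1 was the most abundant of them in young fruit, and its primers are given to tell it from the other EFM homologs.
DN146463_c1_g1 sense: tgctgctgtgaacctccaa
DN146463_c1_g1 antisense: tccttctctgctgccaatgt
DN146463_c1_g1 was at 13, 12.7 and 11.6 FPKM in the leaf libraries and 44, 32.3 and 39.6 FPKM in the young fruit libraries. All young fruit libraries lay above all leaf libraries (limma log2 fold change 1.62 with SE 0.10, adjusted p = 8.65e-09). Of the other EFM homologs, DN145164_c1_g1 was lower in young fruit. DN145164_c1_g1 was at 21.5, 21.7 and 21 FPKM in the leaf libraries and 4.6, 4.42 and 4.39 FPKM in the young fruit libraries. Every leaf value exceeded every young fruit value (limma log2 fold change -2.23 with SE 0.09, adjusted p = 3.98e-10). DN143137_c2_g1 and DN127588_c0_g1 were higher, with leaf means of 7.66 ± 0.352 and 0.832 ± 0.14 FPKM and young fruit means of 17.7 ± 0.975 and 4.79 ± 0.454 FPKM. EFM homologs were thus higher in 3 unigenes and lower in 1.

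The APL homologs likewise divided. DN132443_c0_g1 was at 4.37, 5.82 and 4.37 FPKM in the leaf libraries and 30.1, 27.7 and 31.3 FPKM in the young fruit libraries. Young fruit exceeded leaf throughout (limma log2 fold change 2.6 with SE 0.16, adjusted p = 1.06e-08). DN130043_c0_g1 was at 0.271, 0.0325 and 0.0475 FPKM in the leaf libraries and 2.37, 2.65 and 3.08 FPKM in the young fruit libraries. Leaf was the lower tissue in each library (limma log2 fold change 3.85 with SE 0.32, adjusted p = 2.76e-07). In DN142101_c1_g2 the order was reversed. DN142101_c1_g2 was at 13.4, 10.7 and 9.57 FPKM in the leaf libraries and 3.72, 3.25 and 5.44 FPKM in the young fruit libraries. Leaf stood higher without overlap (limma log2 fold change -1.44 with SE 0.18, adjusted p = 1.51e-05). DN149346_c2_g2 was lower too, at 3.27, 2.91 and 1.52 FPKM in leaf against 0.568, 0.551 and 1.06 FPKM in young fruit (limma log2 fold change -1.68 with SE 0.30, adjusted p = 0.000269), but was not called when only the 6 libraries were fitted (limma adjusted p = 0.0161). DN139053_c0_g1, at 17.2, 17.2 and 17.4 FPKM in leaf against 27.2, 26 and 26 FPKM in young fruit, passed on p and not on the fold (limma log2 fold change 0.61 with SE 0.06, adjusted p = 1.71e-06). Among the PHL homologs DN135152_c0_g1 (PHL5) and DN129876_c0_g1 (PHL8) were higher. DN135152_c0_g1 was at 0.36, 0.20 and 0.20 FPKM in the leaf libraries and 2.28, 1.6 and 2.26 FPKM in the young fruit libraries. DN129876_c0_g1 was at 3.69, 4.92 and 4.1 FPKM in the leaf libraries and 13.7, 12.1 and 14 FPKM in the young fruit libraries. The log2 fold changes were 2.62 and 1.63 (limma adjusted p = 5.67e-06 and 6.23e-08). DN143480_c3_g1 (PHL7) and DN146474_c3_g1 (PHL6) were not called, at log2 fold changes of 0.57 and -0.27.

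**Figure D5:**
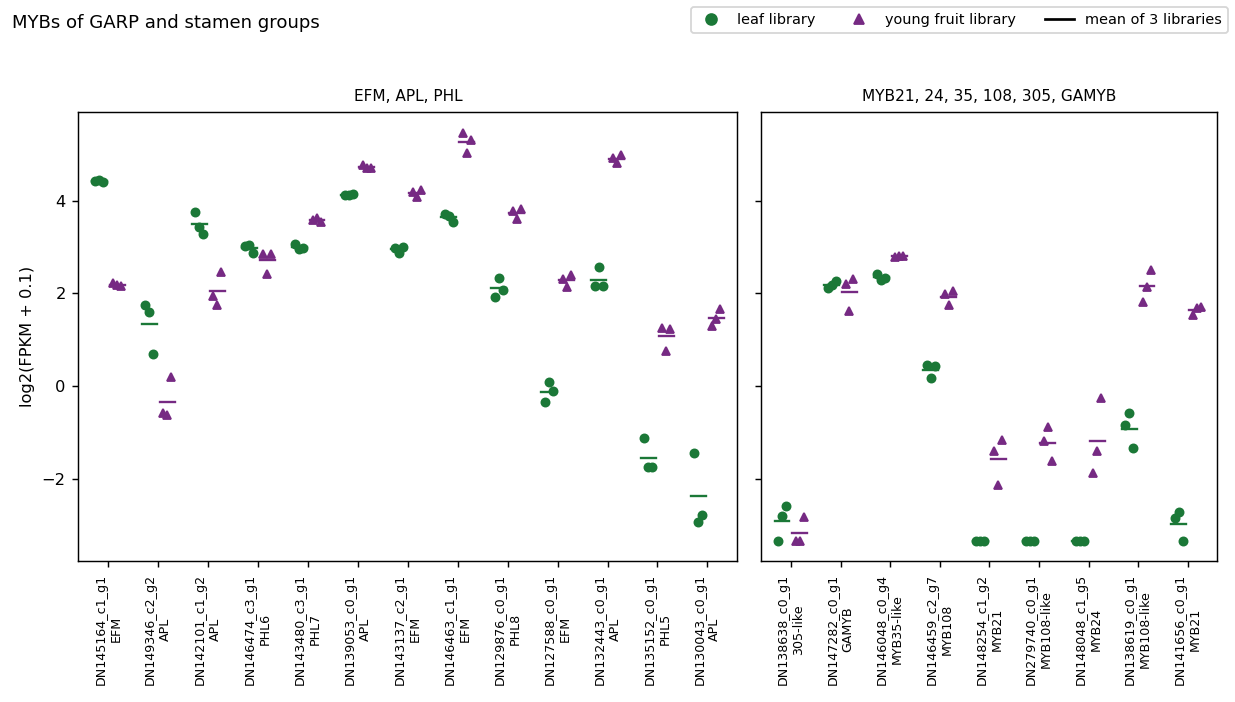
Expression in each leaf (circles) and young fruit (triangles) library of the tested GARP homologs (left) and of the tested homologs of stamen and petal MYBs (right), on log2(FPKM + 0.1). Horizontal lines are means of 3 libraries and the unigenes of a panel are ordered by log2 fold change. On the left both directions occur among EFM and APL homologs, and on the right all 6 called members lie higher in young fruit.

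Homologs of the stress-related MYB44, MYB13 and MYB15 and those of MYB315 are separate groups, joined here for a count. Of their 10 tested members 1 was called, where 41.8% of all unigenes were, a difference that was not tested. Taken apart, the share called was 33.3% of 3 MYB44 homologs and 0.0% of the 3 and 4 tested members of the others. Each group is too small to set against 41.8%. The 10 include the cold- and ABA-responsive homolog DN146459_c2_g4, which was listed at 0 in all 6 libraries and so could not be called. MYB44 acts in abscisic acid responses of Arabidopsis, and its 3 homologs comprised 1 higher and 2 not called. DN144824_c3_g1 was at 8.26, 6.81 and 7.43 FPKM in the leaf libraries and 22.3, 20.7 and 19.9 FPKM in the young fruit libraries. All young fruit libraries lay above all leaf libraries (limma log2 fold change 1.47 with SE 0.15, adjusted p = 1.40e-06). The more abundant DN99221_c0_g1, at 30, 26.9 and 29.8 FPKM in leaf against 49.3, 49.3 and 48.1 FPKM in young fruit, passed on p and not on the fold (limma log2 fold change 0.76 with SE 0.09, adjusted p = 4.43e-06), as did DN143203_c0_g1, at 27.1, 27.3 and 27.2 and 31.8, 34.1 and 29.2 FPKM (log2 fold change 0.22, limma adjusted p = 0.00712). The MYB13 homolog DN143182_c1_g1 varied among young fruit libraries. DN143182_c1_g1 was at 4.4, 3.64 and 6.7 FPKM in the leaf libraries and 3.69, 17.2 and 17.5 FPKM in the young fruit libraries. Young fruit library 1 lay within the leaf range, and the MYB was not called (limma log2 fold change 1.11 with SE 0.77, adjusted p = 0.24). DN137108_c0_g1, named after MYB15, a MYB of cold and defence responses, stayed under 0.5 FPKM in both tissues and was not called. None of the 4 MYB315 homologs was called, with log2 fold changes from 0.27 to 0.69. The highest of these, DN131966_c0_g1, passed on p and not on the fold (limma log2 fold change 0.69 with SE 0.15, adjusted p = 0.00123).

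The 2 called homologs of MYB1R1, a single-repeat MYB of the potato drought response, were lower in young fruit. DN133642_c0_g1 was at 125, 126 and 123 FPKM in the leaf libraries and 59.8, 57 and 58 FPKM in the young fruit libraries. Every leaf value exceeded every young fruit value (limma log2 fold change -1.1 with SE 0.09, adjusted p = 1.41e-07). DN148732_c1_g1 was at 24.9, 26.4 and 26.6 FPKM in the leaf libraries and 7.87, 6.23 and 6.66 FPKM in the young fruit libraries. Leaf exceeded young fruit throughout (limma log2 fold change -1.9 with SE 0.08, adjusted p = 2.86e-10). Another, DN274153_c0_g1, at 0.774, 1.25 and 0 FPKM in leaf and listed at 0 in young fruit, was not called (limma adjusted p = 0.0444) but was without leaf library 3 (limma adjusted p = 0.00162). The homolog of DIVARICATA, which sets ventral petal identity in Antirrhinum, was level, with DN146332_c2_g2 at 15, 14.7 and 13.4 FPKM in leaf against 15.7, 15.2 and 14 FPKM in young fruit (limma log2 fold change 0.06 with SE 0.07, adjusted p = 0.514). MYB3R proteins regulate mitotic genes in Arabidopsis. The MYB3R-1 homolog DN148161_c1_g2 was lower in young fruit, at 4.56, 5.41 and 5.22 FPKM in leaf against 1.91, 1.12 and 1.94 FPKM in young fruit (limma log2 fold change -1.59 with SE 0.24, adjusted p = 6.65e-05). The abundant MYB3R-3 homolog DN144228_c3_g1 was at 41.9, 43.8 and 45.3 FPKM in leaf against 60.4, 51.4 and 59.3 FPKM in young fruit, passing on p and not on the fold (limma log2 fold change 0.38 with SE 0.10, adjusted p = 0.0061). The MYB48-like DN149499_c0_g2 was higher, at 1.62, 1.88 and 2.22 FPKM in leaf against 4.44, 3.51 and 6.28 FPKM in young fruit (limma log2 fold change 1.24 with SE 0.24, adjusted p = 0.000495). The MYB59 homolog DN147278_c2_g2 was lower, at 0.783, 0.389 and 0.597 FPKM in leaf against 0, 0 and 0.101 FPKM in young fruit (limma log2 fold change -2.41 with SE 0.63, adjusted p = 0.00483), a call lost without leaf library 1 or 3 (limma adjusted p = 0.0202 and 0.0152) and without young fruit library 1 or 2 (0.0212 and 0.0210).

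Several of the widest differences lay in MYBs whose best match says little of a function. The MYB-related Hv1 homolog DN146053_c2_g1, of the R2R3 type and named after a barley protein, had the highest log2 fold change of all MYBs. DN146053_c2_g1 was at 0.387, 0.29 and 0.239 FPKM in the leaf libraries and 22.3, 21.9 and 22.7 FPKM in the young fruit libraries. Leaf was the lower tissue in each library (limma log2 fold change 5.8 with SE 0.39, adjusted p = 2.98e-08). Its mean was 0.361 ± 0.0725 FPKM in mature fruit, 0.241 ± 0.215 in flower and 8.04 ± 1.79 in stem. The MYB-like J homolog DN143366_c4_g3, an R1 MYB, was abundant in leaf and low in young fruit. DN143366_c4_g3 was at 61.2, 59.8 and 64.4 FPKM in the leaf libraries and 0.954, 0.945 and 1.04 FPKM in the young fruit libraries. Leaf stood higher without overlap (limma log2 fold change -5.84 with SE 0.17, adjusted p = 1.63e-11). Its mean was 0.214 ± 0.0852 FPKM in mature fruit, 1.43 ± 0.0916 in flower and 13.1 ± 0.47 in stem. The MYB-related protein 2 homolog DN146443_c1_g4 was higher in young fruit. DN146443_c1_g4 was at 0.27, 0.339 and 0.422 FPKM in the leaf libraries and 6.09, 5.78 and 6.78 FPKM in the young fruit libraries. All young fruit libraries lay above all leaf libraries (limma log2 fold change 3.84 with SE 0.29, adjusted p = 8.91e-08). DN149725_c2_g2, described as MYB-related only, was lower. DN149725_c2_g2 was at 1.81, 1.52 and 2.87 FPKM in the leaf libraries and 0.0871, 0 and 0.0742 FPKM in the young fruit libraries. Every leaf value exceeded every young fruit value (limma log2 fold change -3.82 with SE 0.38, adjusted p = 1.34e-06). DN134104_c1_g3, named after a SANT/MYB protein of Macleaya, was listed at 0 in leaf and was at 0.651, 0.246 and 0.701 FPKM in young fruit (limma adjusted p = 5.08e-05). Among the lettered MYB-like proteins as a whole, 3 were higher, 2 lower and 5 not called of 10 tested. The abundant MYB-like X DN144159_c2_g1, ranked 3rd in leaf, was at 62.8, 63.9 and 63.3 FPKM in leaf against 39.4, 36.1 and 40.1 FPKM in young fruit, without overlap and short of the fold threshold (limma log2 fold change -0.72 with SE 0.08, adjusted p = 5.31e-06). DN145224_c1_g2 (MYB-like P) was at 40.5, 32.2 and 33.2 and 29.7, 29.7 and 29.1 FPKM (limma log2 fold change -0.25 with SE 0.13, adjusted p = 0.118). DN70434_c0_g1 (MYB-like Q) was higher, with means of 0.132 ± 0.0558 FPKM in leaf and 0.531 ± 0.169 FPKM in young fruit (limma adjusted p = 0.000469), but was not called when only the 6 libraries were fitted (limma adjusted p = 0.0127).

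Of the 6 tested MYBs named after a Rosa protein, 1 was higher, 1 was lower and 4 were not called. DN145308_c4_g3 was at 24.9, 27.2 and 27.7 FPKM in the leaf libraries and 1.92, 1.64 and 1.25 FPKM in the young fruit libraries. Leaf exceeded young fruit throughout (limma log2 fold change -3.99 with SE 0.14, adjusted p = 8.86e-11). DN143339_c4_g1 was at 3.84, 4.82 and 3.26 FPKM in leaf against 8.58, 6.69 and 8.89 FPKM in young fruit, at the edge of the fold threshold (limma log2 fold change 1.01 with SE 0.17, adjusted p = 0.000139). Its log2 fold change was 0.82 under median-of-ratios scaling, 0.99 and 0.88 without leaf library 1 or 3, and 0.96 and 0.93 without young fruit library 1 or 3, and the call was lost in each case. DN146011_c1_g1, the most abundant not called, was at 23.7, 23.1 and 24.5 FPKM in leaf against 26.6, 29.5 and 27 FPKM in young fruit (limma log2 fold change 0.22 with SE 0.09, adjusted p = 0.0563). The Rosa rugosa homolog DN145308_c4_g3 belongs to component DN145308_c4, 1 of the 2 components with calls in both directions. Its 6 MYBs summed to 48.6 to 53.1 FPKM in leaf and 17.1 to 17.5 FPKM in young fruit. The lower members were DN145308_c4_g3 and the MYB114-like DN145308_c4_g6. The higher member was DN145308_c4_g2, named after a cacao MYB121, which was listed at 0 in leaf and was at 0.324, 0.158 and 0.231 FPKM in young fruit (limma adjusted p = 2.43e-05). This call was lost with a pseudocount of 1, against a fold of 2 and with a filter of at least 1 FPKM in at least 3 libraries. In all, 57 of the MYBs shared a component with another MYB.

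Repeat types were given for 75 of the MYBs, a subset that the study chose on the same libraries and that is therefore no independent evidence of a tissue difference. Of the 34 tested R2R3 MYBs 11 were higher in young fruit, 9 were lower and 14 were not called. The 10 R1 MYBs comprised 3 higher, 3 lower and 4 not called, and the 14 tested atypical MYBs 4 higher, 5 lower and 5 not called. Over all unigenes tested, 27.2% were higher and 14.7% lower, and no type was tested against these shares. Summed FPKM of the R1 MYBs was 217 to 219 in leaf and 94.9 to 98.9 in young fruit, and that of the R2R3 MYBs was 263 to 265 in leaf and 137 to 156 in young fruit. Neither sum overlapped between the tissues, but few MYBs carried both. Without DN145829_c0_g2 the R2R3 sum was 101 to 109.8 in leaf and 100.7 to 113 in young fruit, which overlap. Without DN133642_c0_g1 and DN143366_c4_g3 the R1 sum was 29.6 to 32.5 in leaf and 35.9 to 40.4 in young fruit, which turns the direction. These MYBs were left out after their values were seen. Of the 12 MYBs with qRT-PCR primers, 6 were higher in young fruit, none was lower and 6 were not called. These MYBs were selected by the study, and their counts were not tested against the 27.2% higher and 14.7% lower over all unigenes. The 6 higher were those whose primers are printed above. The 6 not called were DN144228_c3_g1, DN144159_c2_g1, DN139053_c0_g1, DN143203_c0_g1, DN146332_c2_g2 and the Rosa rugosa homolog DN143733_c1_g1, which was at 8.21, 8.3 and 8.6 FPKM in leaf against 11.5, 11.1 and 12 FPKM in young fruit (limma log2 fold change 0.46 with SE 0.09, adjusted p = 0.000457).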

How the data were processed

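Leaf and young fruit libraries were taken as groups from the tissue in the sample labels. The authors assembled the reads with Trinity and estimated abundance with RSEM after alignment with Bowtie2, and the submitters' processing notes also name Trimmomatic. Their versions are not given here. The authors deposited FPKM values for 63727 unigenes in each of 15 libraries, and no counts, so counting intervals cannot be given and depth was compared from the ratios of low values only. A linear model of log2(FPKM + 0.1) was fitted in limma 3.58.1 (R 4.3.3) to all 15 libraries, with a mean for each tissue and an empirical Bayes variance that follows the level. The filter was more than 0.1 FPKM in 3 or more libraries, and p-values were adjusted after Benjamini-Hochberg over all 51175 unigenes that passed. Sums per library were compared by exact permutation tests. Further steps used Python 3.11.15 with numpy 2.4.6, pandas 2.3.3, scipy 1.17.1 and matplotlib 3.10.9. The fit was tried on simulated data with the spread of the real groups. Of unigenes changed by 1.5, 2 and 3 on the log2 scale it called 20 of 67, 28 of 67 and 35 of 66. Among those at a mean near 1 FPKM or more it called 16 of 26, 17 of 24 and 22 of 27. Of 50975 unchanged unigenes 2 were called. A MYB that was not called is therefore not shown to be level.

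The thresholds are those of the study's methods. The members, the groups of MYBs and the tests were chosen with earlier results of these data known. MYBs were named by a rule: up to 12 higher and 12 lower with the largest fold change and no overlap, up to 4 called and 2 uncalled members of each group, the 5 most abundant of each tissue, those with qRT-PCR primers, those of components with calls both ways and those matching insect proteins. Outside the MYBs, the 2 higher and 2 lower unigenes of highest level were named. DN109626_c0_g1, DN129697_c0_g1, DN129876_c0_g1, DN138451_c0_g1, DN141656_c0_g3, DN142101_c1_g2, DN142694_c0_g3, DN143137_c2_g1, DN144669_c3_g3, DN145164_c1_g1, DN146433_c2_g3, DN146474_c3_g1, DN147741_c0_g1, DN148254_c1_g2, DN149346_c2_g2, DN66535_c0_g1 and DN70434_c0_g1 were named outside this rule, after their values were seen. Alternatives were other pseudocounts, filters, scalings and thresholds, no trend of the spread, a fit of the 6 libraries alone, a test against a fold of 2, a replicate block and the omission of single libraries. The functional annotation and the qRT-PCR measurements are not analysed here.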

Additional observations from a re-analysis of the deposited data

How the results depend on the processing

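None of the named limma results that were compared reversed under the 17 alternatives. With the filter of at least 1 FPKM, 16 of them were not tested. Reversals over all unigenes were not counted. Of the 78 called MYBs, 40 were called in the same direction under every alternative, 38 were lost under at least 1 and 5 were lost without a single library. With each library left out in turn, 20246 to 20703 unigenes differed (13259 to 13612 higher and 6916 to 7297 lower in young fruit) and 75 to 81 MYBs did (42 to 45 higher and 32 to 36 lower). Low values carried many calls. With a pseudocount of 1, 10437 unigenes were called (6107 higher, 4330 lower) and 53 MYBs kept their call, with 28 MYBs higher. Requiring at least 1 FPKM in at least 3 libraries left 12273 called unigenes, 7059 of them higher. A test against a fold of 2 called 13310 unigenes (9203 higher, 4107 lower) and 51 MYBs, 28 of them higher. Median-of-ratios scaling lowered the share of higher calls from 64.9% to 60.1%, and rescaling to equal sums to 61.8%, and each dropped the same 3 MYBs, DN138451_c0_g1, DN143339_c4_g1 and DN30159_c0_g1. The difference in summed MYB FPKM, young fruit minus leaf, was -246 with median-of-ratios scaling, -339 with libraries rescaled to a sum of 1000000 (a scale that also raises every value), -5.50 without the most abundant MYB of each tissue and -68.0 to -49.7 without 1 library. That of the R2R3 MYBs was 0.225 without DN145829_c0_g2, and that of the R1 MYBs 7.27 without DN133642_c0_g1 and DN143366_c4_g3, omissions chosen after the values were seen. The excess of young fruit in unigenes above 0 was 6984.5 to 7640.0 without 1 library and 154 at 10 FPKM or more, and that at 1 FPKM or more was 1268 to 1496 without 1 library. The share of the summed FPKM in the 100 highest unigenes was 3.43 percentage points lower in young fruit, a difference of -4.38 to -2.56 without 1 library, of -1.34 for the 10 highest and of -0.562 for the 1000 highest.

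No pairing of the samples by replicate number was seen. Deviations of same-numbered leaf and young fruit libraries from their tissue means correlated at -0.00802, 0.00987 and 0.0165 across unigenes. Those of differently numbered libraries correlated at -0.0207 to 0.0107. Such values cannot settle whether same-numbered libraries came from the same plants. With the replicate number as a block, 21207 unigenes and 77 MYBs were called, and DN30159_c0_g1 was the one MYB lost (limma adjusted p = 0.0133).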
